A study of Mus musculus with 10 samples.

Results

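The cells labelled tumor cells in the ascites of a mouse with an ovarian tumor were described here by the genes listed as their markers. A marker is a gene whose average level was higher in the cells of a cluster than in all other ascites cells of the same library. The members are all entries of cluster 2 of the authors' deposited table, chosen by its cluster label alone: 572 of 1985 entries over 9 clusters, or 572 of the 1593 genes listed for any cluster. Against the 54949 genes that the table's p-value adjustment implies, 1.04% were listed for the tumor cells. The CAFs (cancer-associated fibroblasts, cluster 8), with which they are compared below, held 360 entries (0.655%).

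The tumors arose in C57BL/6 mice after plasmids for Cas9, guide RNA and Cre were electroporated into the fallopian tube epithelium. The ascites gave 1 single-cell RNA library (Chromium Single Cell 3' V2, red cells removed) from 1 mouse, and its source label has the same number as Lkb1-deleted tumor 1, which is PAX8-positive. DNA of 8 fixed and embedded tumors was sequenced at low coverage: Lkb1-deleted tumors 1 and 4 are PAX8-positive, Lkb1-deleted tumors 2, 3 and 5 are PAX8-negative, Lkb1-intact tumor 1 is PAX8-negative, and Lkb1-intact tumors 2 and 3 are PAX8-positive. All 8 tumors share the strain and the electroporation, and the labels do not name the guides or say which cells express Cre. Lkb1 is a kinase that activates AMPK, and PAX8 is a transcription factor of the secretory cells of the tube. A library of normal tube and uterus was not analysed here.

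High-grade serous ovarian carcinoma is held to arise largely from the secretory epithelium of the fallopian tube, which carries keratins, cell junction proteins and PAX8. Its cells spread into the peritoneal cavity and float in ascites beside leukocytes, fibroblasts and cells shed from the mesothelium, the sheet that lines the cavity. Mesothelial cells carry keratins as well, and share WT1, mesothelin and MUC16 with this carcinoma, so these genes do not separate the cell types by themselves.

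The member with the highest fold change was Mt2, and Mt1, its neighbour on chromosome 8, was listed too. They encode metallothioneins, small cysteine-rich proteins that bind zinc and copper. In mouse and human cells they are induced by metals through short promoter elements bound by the factor MTF-1, so their promoter windows are shown. Each window runs from 250 bases before to 50 bases after a transcript start in RefSeq (build GRCm38.p6, plus strand): Mt2 at chr8:94172368-94172667 and Mt1 at chr8:94178839-94179138. For Mt2 that start is the first base of the annotated gene, and for Mt1 it lies 206 bases inside the annotated gene, which begins at 94178883. Capitals mark matches, on either strand, to TGCNCNC, a loose form of the metal response element core that allows any base at each N.
Mt2: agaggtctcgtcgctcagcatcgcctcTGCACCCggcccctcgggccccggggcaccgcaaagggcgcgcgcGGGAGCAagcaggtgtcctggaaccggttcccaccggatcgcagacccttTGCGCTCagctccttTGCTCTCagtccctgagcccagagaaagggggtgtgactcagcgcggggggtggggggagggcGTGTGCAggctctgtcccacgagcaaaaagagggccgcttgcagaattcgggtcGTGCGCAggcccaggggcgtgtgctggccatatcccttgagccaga
Mt1: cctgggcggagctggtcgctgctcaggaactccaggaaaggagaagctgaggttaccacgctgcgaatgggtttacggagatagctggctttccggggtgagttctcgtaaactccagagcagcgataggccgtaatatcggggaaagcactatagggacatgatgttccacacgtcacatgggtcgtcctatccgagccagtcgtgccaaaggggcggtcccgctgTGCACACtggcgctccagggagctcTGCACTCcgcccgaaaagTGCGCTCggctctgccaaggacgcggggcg
The Mt2 window holds 6 such matches and the Mt1 window 3, and in both some of them lie after the start. Of 27025 promoter windows of this length, 56 (0.207%) held at least 6 matches and 1879 (6.95%) at least 3. By bases before the start alone, 24 windows (0.0888%) and 0 members held at least 6. Over the whole window, at least 1 match stood in 65.5% of the 440 members with a window, in 64.6% of the 260 CAF markers with one and in 50.4% of all windows. The AP-1 site TGANTCA stood in 7.27% of members' windows against 7.93% of all, and the TEAD site GGAATG in 14.8% against 14.6%. The hypoxia element core ACGTG stood in 24.5% of members' windows and 19.7% of all. The 4 motifs were searched on both strands, matches of different motifs may overlap, and a match is a description of letters and not a bound site.

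Fold changes are given as the average log fold change in the authors' deposited table, read as a natural log. These values come from 1 library and the clusters were formed from the same genes, so no value here is a test and there is no replicate check. The members' median was 0.75 (2.11-fold), with a range of 0.50 (1.65-fold) to 2.92 (18.6-fold) in the authors' deposited table. Of the 572 members, 23 had a log fold of at least 2, 132 lay from 1 to 2, and 417 were under 1. The table lists no entry under 0.50: the members closest above were Cd9, Prss12, Pcnx2, Aff4 and Tomm20, all at 0.50, and 16 members were under 0.51. A gene that is not listed may therefore be expressed, but with a smaller difference.

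The label was set against markers of the cell types that ascites can hold. All 7 markers given for the cluster were members. Among defining markers, 5 of 8 epithelial ones were listed (Krt7, Krt8, Krt18, Krt19 and Epcam, without Cdh1, Cldn4 and Cldn7) and 7 of 7 mesothelial ones (Upk3b, Upk1b, Msln, Wt1, Lrrn4, Gpm6a and Muc16). Of 4 fallopian tube secretory markers only Folr1, a folate receptor, was listed, and Pax8, Ovgp1 and Wfdc2 were listed for no cluster. Ciliated markers numbered 0 of 3, fibroblast markers 1 of 8 (Dcn, against 6 of 8 for CAFs) and smooth muscle markers 2 of 4 (Acta2 and Tagln). Leukocyte, endothelial and red cell markers numbered 0 of 4 each. The label names no lineage. By count these lists leaned to the mesothelium: mesothelial markers were complete among the members and tube secretory markers were mostly absent. They do not settle the lineage by themselves, since Wt1, Msln and Muc16 are shared with the carcinoma and an unlisted gene may be expressed. The entry TD-TOMATO-WPRE-POLYA-G1, named for a red fluorescent protein, was listed for the tumor cells and for no other cluster, with a log fold of 1.65 in the authors' deposited table.

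The leading members mixed metal binding, keratin, secreted and junction genes. Mt2 led with 2.92 in the authors' deposited table, followed by Clu (2.88), which encodes the secreted chaperone clusterin. Lgals7 (2.74), a galectin of stratified epithelia, Krt7 (2.71) and Krt18 (2.62), keratins of simple epithelia, and Igfbp5 (2.53), which binds insulin-like growth factors, came next among named genes in the authors' deposited table. Dmkn (2.48, a protein secreted by keratinocytes), Mt1 (2.38), the proteoglycan gene Dcn (2.33) and Ldhb (2.32, a lactate dehydrogenase subunit) completed the first 10 members that carry gene names, again in the authors' deposited table. The 3 leading entries known by an ID alone were AC131339.2 (2.77), Gm12840 (2.50) and Gm20186 (2.24) in the authors' deposited table. Further down in the authors' deposited table were Tsc22d1 (2.23, a transcription regulator), Smim1 (2.22, a small membrane protein), Sdc4 (2.22, a heparan sulfate proteoglycan), Upk3b (2.21), Krt19 (2.14), Chchd10 (2.09, mitochondrial), Sparc (2.08, a matrix protein) and Soat1 (2.08, which esterifies cholesterol). Cst6 (2.06), an inhibitor of cathepsins, and Lsr (2.03), a protein of tricellular junctions, closed the set of at least 2 in the authors' deposited table.

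**Figure D1:**
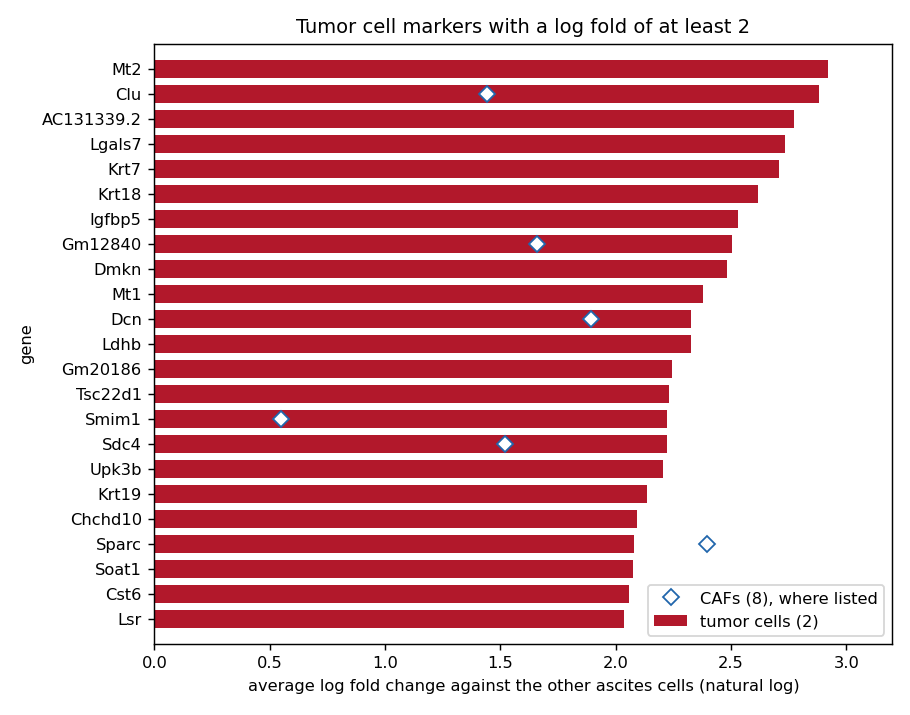
The 23 members with a log fold of at least 2, from the top down; the horizontal axis is the average log fold change (natural log) against the other ascites cells, with bars for tumor cells (2) and open diamonds for CAFs (8) where the gene is listed there too. Most bars, including Mt2 at 2.92 and Krt7 at 2.71, carry no diamond, while Sparc's diamond (2.40) lies beyond its bar (2.08).

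Epithelial genes were listed for the tumor cells and not for the CAFs. Of 40 keratin and adhesion genes, 11 were members, 0 were CAF markers, 3 were listed for other clusters alone and 26 were listed nowhere. Besides Krt7 and Krt18, the keratins Krt19 (2.14) and Krt8 (1.85), the partner of Krt18 in filaments, were members in the authors' deposited table. The adhesion protein gene Epcam stood at 1.69, the claudin genes Cldn3 at 1.64 and Cldn15 at 1.16, F11r (junctional adhesion molecule A) at 1.22 and Cxadr, a junction protein and virus receptor, at 1.08 in the authors' deposited table. The tight junction gene Cgn (0.59) and the desmosome gene Dsg2 (0.54) were near the lower limit of the authors' deposited table. The E-cadherin gene Cdh1 and the basal keratin genes Krt5 and Krt14 were listed for no cluster.

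Mesothelial genes were the list most fully covered by the members. Of 30 genes, 21 were members, and 5 of these 21 were CAF markers too. The uroplakin gene Upk3b (2.21) led, with the transcription factor gene Wt1 (1.92), Rarres2 (1.83, which encodes chemerin), Ezr (1.79, ezrin, which ties membrane to actin) and Gpm6a (1.72) following in the authors' deposited table. The retinoic acid making enzymes Aldh1a2 (1.51) and Aldh1a1 (1.28), Rspo1 (1.41, which enhances WNT signalling), Upk1b (1.28) and Pdpn (1.05, podoplanin) were lower in the authors' deposited table. Both human tumor antigens of the list were low among them: Msln, mesothelin, had 0.68 and Muc16, which encodes CA125, had 0.67 in the authors' deposited table. Shared with the CAFs were Wt1 (1.92 in tumor cells, 0.70 in CAFs), Rarres2 (1.83, 0.54), Nkain4 (1.52, 0.67), C3 (1.48, 1.41) and Ptgis (1.30, 1.31), in the same order of clusters and from the authors' deposited table. Calb2 (calretinin), Bnc1 and Bnc2 were listed for no cluster, and Igfbp6 for monocytes alone.

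Fallopian tube and Mullerian genes were few. Of 28 genes, 4 were members: Krt7, Wt1, Folr1 (0.94) and the tetraspanin gene Cd9 (0.50, the lowest member) in the authors' deposited table. Krt7 is on the epithelial list and Wt1 on the mesothelial list too, and Cd9 was higher in monocytes (0.94 in the authors' deposited table). The other 24, among them Pax8, Pax2, Sox17, Emx2, Esr1, Pgr and the cilia gene Foxj1, were listed for no cluster. The tumor with the ascites mouse's number is labelled PAX8-positive, and how many Pax8 transcripts these cells held is not known from a marker list.

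Secreted, enzyme inhibitor and iron-binding genes were listed equally often for tumor cells and CAFs, 12 of 40 each, with 8 shared. The members without a CAF entry were Cst6 (2.06), Spint2 (1.35, which inhibits membrane serine proteases), Timp3 (1.20, which inhibits metalloproteinases) and Muc16 (0.67) in the authors' deposited table. Shared were Clu (2.88 in tumor cells, 1.44 in CAFs), Dcn (2.33, 1.89), Sparc (2.08, 2.40), Lgals1 (1.85, 1.93), Timp1 (1.02, 0.61) and Mgp (0.63, 0.74), with C3 and the collagen chaperone gene Serpinh1 (1.34, 2.32), in the authors' deposited table. Listed for the CAFs and not for tumor cells were Cp (1.52, ceruloplasmin), Serpina3n (0.71), Plat (0.69) and Lcn2 (0.69, lipocalin 2) in the authors' deposited table. Slpi and Wfdc2, secreted inhibitors often high in human ovarian carcinoma, were listed for no cluster. Of 13 complement genes 6 were members, 5 of them shared with CAFs: Clu, C3, Serping1 (1.34 in tumor cells, 2.04 in CAFs; the C1 inhibitor), C1s1 (1.16, 1.06) and Cd55 (0.52, 0.77), in the authors' deposited table. The member without a CAF entry was Cd59a (0.81 in the authors' deposited table), which blocks the membrane attack complex.

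Stress genes divided by kind. Both metallothionein genes were members and neither was listed for CAFs, whose 2 entries in the metal list of 9 were Cp (1.52) and the ferritin gene Fth1 (0.82) in the authors' deposited table. Of 31 heat shock and unfolded protein genes 7 were members, and 6 of the 7 were shared with CAFs. The small heat shock genes stood highest: Hspb1 had 1.91 in tumor cells and 0.95 in CAFs, and Cryab 1.79 in tumor cells and 0.56 in CAFs, in the authors' deposited table. Hsp90aa1 (0.80 in tumor cells, 0.57 in CAFs), Hspb8 (0.73, 0.64), Hsp90ab1 (0.73, 0.75) and Hspe1 (0.61, 0.59) were lower, and Dnaja1 (0.64) had no CAF entry in the authors' deposited table. No chaperone of the endoplasmic reticulum on the list (Hspa5, Hsp90b1, Calr, Pdia4) and none of Hspa1a, Hspa1b, Ddit3 and Atf4 was a member.

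Of 24 genes against oxidative damage 4 were members and none was shared with CAFs, while macrophages of cluster 0 had 5 from 158 entries. The 4 members were the glutathione transferase genes Gstm1 (1.81), Gsta4 (0.58) and Gstp1 (0.55), and Aldh1a1, in the authors' deposited table. Nqo1, Hmox1, Gclm and Srxn1, which are among the targets of the oxidative stress factor NRF2, were not members. Glutathione transferase genes outside this list were members too, among them Gstm2 (1.58) and Mgst1 (1.48 in tumor cells, 0.70 in CAFs) in the authors' deposited table. Of 30 immediate early genes 2 were members, Jund (0.79) and Cyr61 (0.58) in the authors' deposited table, beside 2 for CAFs (Klf9 and Jun) and 14 for monocytes. Of 25 hypoxia and glycolysis genes 3 were members and 0 CAF markers: Ddit4 (0.85, an inhibitor of mTORC1), Egln3 (0.65, an oxygen sensor) and Car9 (0.62, a carbonic anhydrase) in the authors' deposited table. Monocytes, with 241 entries in all, had 5 of these 25 genes, among them Egln3 at 0.65 too. The glycolysis genes of that list, such as Ldha, Pgk1 and Aldoa, were not members.

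Growth genes were few among the members. Of 49 genes for growth factors, receptors and their binding proteins 3 were members and 7 were CAF markers. Igfbp5 stood at 2.53, the ligand genes Wnt4 at 1.14 (1.87 in CAFs) and Kitl, the ligand of KIT, at 0.59 in the authors' deposited table. Among the CAF entries without a tumor cell entry were Igfbp7 (2.35), Igfbp4 (2.27), Mdk (1.02, midkine) and Pdgfrb (0.65) in the authors' deposited table. So tumor cells and CAFs were each listed for other IGF binding proteins, Igfbp5 against Igfbp4 and Igfbp7. Egfr, Erbb2, Erbb3 and Met were not members.

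Of 36 cyclin and proliferation genes 6 were members, against 13 for the cluster labelled dividing cells. Ccnd2, cyclin D2, had 1.16 in tumor cells, 0.71 in CAFs and 1.46 in T cells in the authors' deposited table. Its kinase partner gene Cdk4 had 1.01 in tumor cells and 0.93 in CAFs in the authors' deposited table. Cdkn2a, which encodes an inhibitor of that kinase, had 0.56 in tumor cells and 0.55 in CAFs in the authors' deposited table. H2afz (0.66), Tubb5 (0.59) and Stmn1 (0.53) completed the 6, and each was higher in dividing cells (1.24, 1.25 and 1.48), in the authors' deposited table. Genes of mitosis and DNA replication such as Mki67, Top2a and Mcm5 were not members. Cells in division may have been placed in the cluster of that name, whatever their type, which was not tested. Of 18 Hippo-YAP genes 3 were members: Wwtr1 (0.75), which encodes the coactivator TAZ, Cyr61 (0.58) and Tead1 (0.56), a DNA-binding partner of TAZ, in the authors' deposited table.

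Matrix genes were listed more often for the CAFs, and most of the tumor cells' matrix genes were shared with them. Of 44 fibroblast and matrix genes 11 were members and 21 CAF markers, with 8 shared, led by Dcn, Sparc and Serpinh1. The basement membrane collagen genes Col4a1 (1.19) and Col4a2 (0.79) and the crosslinking enzyme gene Loxl2 (0.62) were members without a CAF entry in the authors' deposited table. The fibrillar collagen genes Col1a2 (2.71), Col3a1 (2.07) and Col1a1 (1.89), with Bgn (1.91) and Pdgfra (1.51), were CAF markers and not members, in the authors' deposited table. Of 37 contractile and cytoskeletal genes 17 were members and 7 CAF markers. Acta2, smooth muscle actin, often used as a marker of activated fibroblasts, was a member (1.16) without a CAF entry, as were Crip1 (1.62), Tpm1 (1.56) and Tagln (0.53), in the authors' deposited table. Of 11 regulators and markers of epithelial-mesenchymal transition only Vim was a member (0.52 in tumor cells, 0.79 in CAFs, in the authors' deposited table), and Snai1, Snai2, Twist1 and Zeb1 were not members.

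Leukocyte and MHC class II genes were absent from the members, while interferon-induced genes were not. Of 29 MHC class I and interferon genes 4 were members: Oasl2 (1.04), Bst2 (0.99 in tumor cells, 0.88 in CAFs), Ifi27 (0.98) and Gbp2 (0.88) in the authors' deposited table. Dividing cells and macrophages of cluster 0 had 3 each from shorter lists, of 110 and 158 entries against 572 for the tumor cells. None of 7 MHC class II genes, 20 leukocyte genes and 7 red cell genes was a member. Of 26 chemokine and cytokine genes 1 was a member, Il18 (0.72 in the authors' deposited table), against 9 CAF markers led by Cxcl13 (2.52 in CAFs, the authors' deposited table). Of 11 endothelial genes 1 was a member, Esam (0.71 in the authors' deposited table). A list of 10 symbols of reporter and edited genes had 0 members, the fluorescent protein entry being listed under its own name. The 23 gene lists described so far hold 539 genes, 104 of them members, which is 18.2% of the members.

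**Figure D2:**
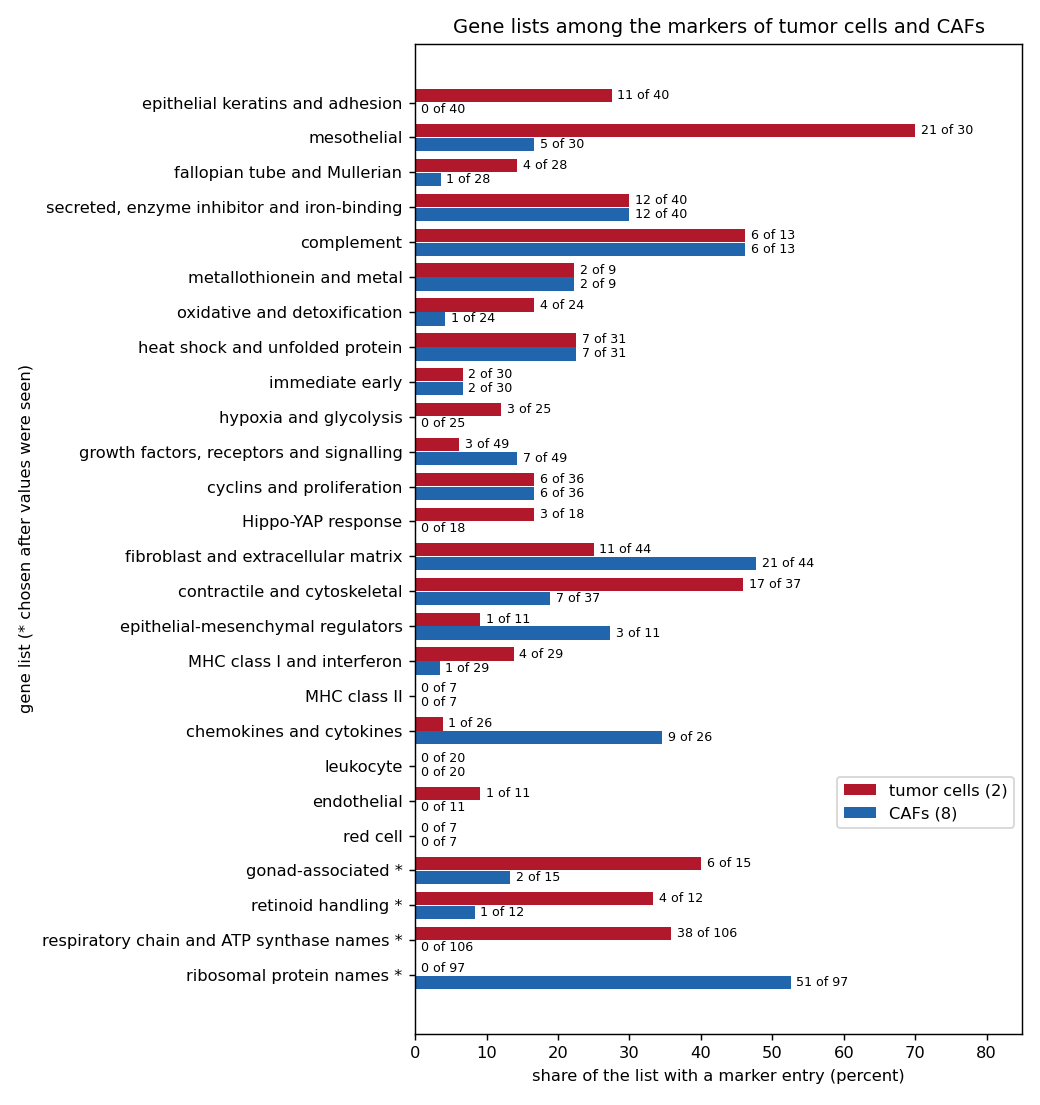
Share of each gene list with a marker entry, in percent, for tumor cells (2) in the upper bar and CAFs (8) in the lower bar of each pair, with counts beside the bars and an asterisk on lists chosen after values were seen. The mesothelial list reaches 21 of 30 for tumor cells against 5 of 30 for CAFs, and the epithelial list 11 of 40 against 0 of 40, while the fibroblast list stands at 11 of 44 against 21 of 44.

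The tumor cells shared more entries with the CAFs than with any other cluster of the authors' deposited table. Shared were 114 genes, 19.9% of the tumor cell list and 31.7% of the CAF list. The other clusters shared between 0 (macrophages, cluster 0) and 14 (dividing cells) with the tumor cells. Of the 114, 106 were listed for no further cluster. The remaining 458 members (80.1%) were not CAF markers, and 436 (76.2%) were listed for the tumor cells alone. CAF entries have adjusted p-values up to 0.0499 in the authors' deposited table and tumor cell entries up to 5.82e-20, so the lists do not end at the same strength of evidence. Both clusters come from the same library, and a gene missing from the CAF list may lie under its limits.

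Of the 114 shared genes, 80 had the higher log fold in tumor cells and 34 in CAFs, with medians of 0.95 in tumor cells and 0.77 in CAFs in the authors' deposited table. Members not shared had a median of 0.72 in the authors' deposited table. Among the 23 members of at least 2, 6 were shared, and among the first 50, 17. The genes that leaned most to tumor cells were Smim1 (2.22 in tumor cells, 0.55 in CAFs), Clu, Rarres2, Cryab and Wt1 in the authors' deposited table. Hspb1, Cd81 (1.79 in tumor cells, 0.85 in CAFs; a tetraspanin), Nkain4, Gm12840 (2.50, 1.66) and Heg1 (1.57, 0.73) came next in the authors' deposited table. Leaning most to CAFs were Csrp2 (1.04 in tumor cells, 2.96 in CAFs; a LIM protein of smooth muscle), Serpinh1, Eva1b (0.59, 1.56), Wnt4 and Serping1 in the authors' deposited table. Mpp6 (0.66 in tumor cells, 1.24 in CAFs), Tubb5 (0.59, 1.12), Slc25a4 (0.96, 1.45), Efnb1 (0.52, 0.86) and Sparc completed the 10 in the authors' deposited table.

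**Figure D3:**
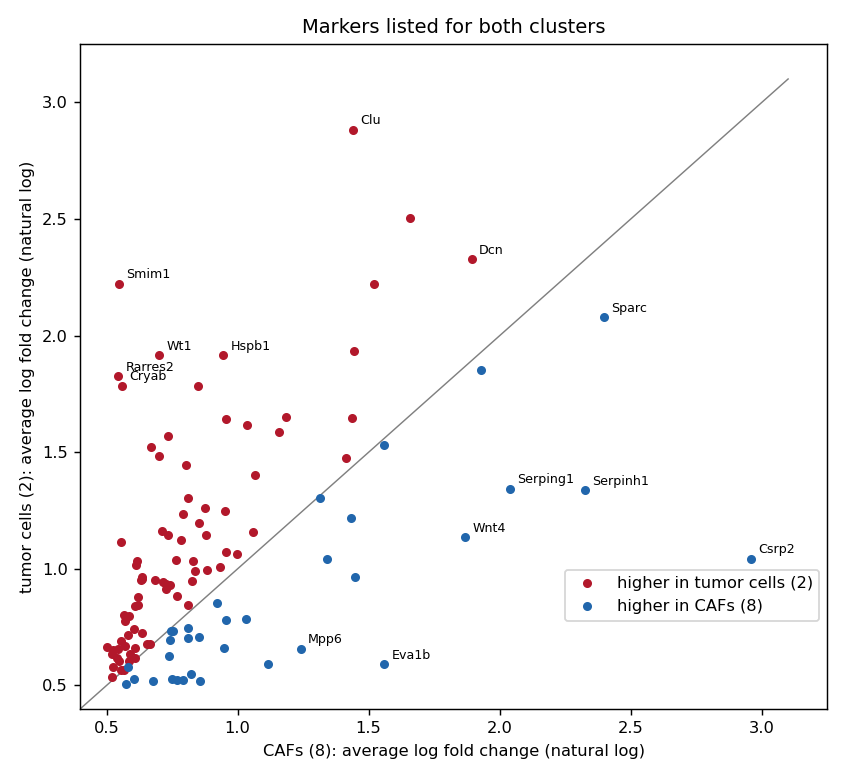
The 114 genes listed for both clusters, with the average log fold change (natural log) in tumor cells (2) on the vertical axis and in CAFs (8) on the horizontal axis; the line marks equal values, red points lie above it and blue points below. Above the line stand 80 genes, with Clu and Smim1 farthest, and below it 34, with Csrp2 farthest.

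Members not shared with the CAFs included every listed keratin and both metallothioneins. Their 15 highest were Mt2, AC131339.2, Lgals7, Krt7, Krt18, Igfbp5, Dmkn, Mt1, Ldhb, Gm20186, Tsc22d1, Upk3b, Krt19, Chchd10 and Soat1, between 2.92 and 2.08 in the authors' deposited table. By list, 11 epithelial, 16 mesothelial, 12 contractile, 4 oxidative, 3 hypoxia and 3 Hippo-YAP genes were members without a CAF entry.

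The authors also deposited copy number regions of the ascites tumor cells, called from RNA. Because they come from the same cells' RNA, they are no independent measure of the markers. A state over 3 was taken as a gain and one under 3 as a loss. Gain regions (20) hold 130 members, 22.7% of the members, against 12% of protein-coding genes. Loss regions (9) hold 18 members, 3.15%, against 8.23% of protein-coding genes. In gain regions lay 11 of the 23 members with a log fold of at least 2 (47.8%), 43 of 132 from 1 to 2 (32.6%) and 76 of 417 under 1 (18.2%). Of members shared with CAFs 17.5% lay in gain regions, and of those not shared 24.0%.

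Several leading genes were neighbours in these regions. Krt7 (chr15:101412403-101427806), Krt18 (chr15:102028216-102032026), Krt8 (chr15:101996711-102004342) and Amhr2, the receptor of anti-Mullerian hormone, lay in the gain region chr15:94577951-103340086, with 8 members among its 63 genes. Of the 29 members on chromosome 15, 27 lay in gain regions. On chromosome 7, chr7:28893248-31042481 held 11 members among 30 genes, the highest share of any region (36.7%), among them Dmkn, Lsr and Spint2. The region chr8:88118769-95807462 was called gained with 2 members among 27 genes, Mt2 and Mt1.

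DNA gives a measure apart from RNA, since it was read in the tumor of the same number. There the region of Krt7 and Krt18 had a median log2 copy ratio of 0.41 and the metallothionein region one of -0.68, while the chromosome 7 region stood at 0.01. Krt8's own single bin was at -0.28 there, and below 0 in 7 of the 8 tumors, although the 77 bins within 1 Mb of it had a median of 0.32. A gene was called gained above 0.2 and lost below -0.2. Of the 125 members in gain regions with DNA bins, 44 (35.2%) were gained and 35 (28.0%) lost in Lkb1-deleted tumor 1. Over all genes, 21.4% were gained and 34.2% lost in that tumor. Of these members, 21 of 25 on chromosome 15 were gained (median log2 0.38). On chromosomes 8, 12 and 18 together 14 of 16 were lost and 1 gained (median log2 -0.68). Without chromosome 15, 23 of 100 were gained and 33 lost. The bins of each whole chromosome had medians of 0.38 (15), -0.42 (8), -0.68 (12) and -0.58 (18) in that tumor. These counts thus went with the chromosomes and are not particular to the members. Of the 18 members in loss regions 6 (33.3%) were gained and 1 (5.56%) was lost in that tumor's DNA, and the loss region of chromosome 17, with 5 members, had a median log2 of 0.29. Past 0.2 in either direction, the RNA calls and the tumor's DNA had opposite signs in the gain regions of chromosomes 8, 12 and 18. The loss region of chromosome 17 did too. The other loss regions had medians from -0.10 (chromosome 19) to 0.15 (chromosomes 2 and 9), so no loss region lay below -0.2. All loss regions but that of chromosome 19 were above 0. Gain regions with medians slightly below 0 stood on chromosomes 3, 7 and 11 (lowest -0.12). Whether ascites and tumor cells differ in these regions was not tested.

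**Figure D4:**
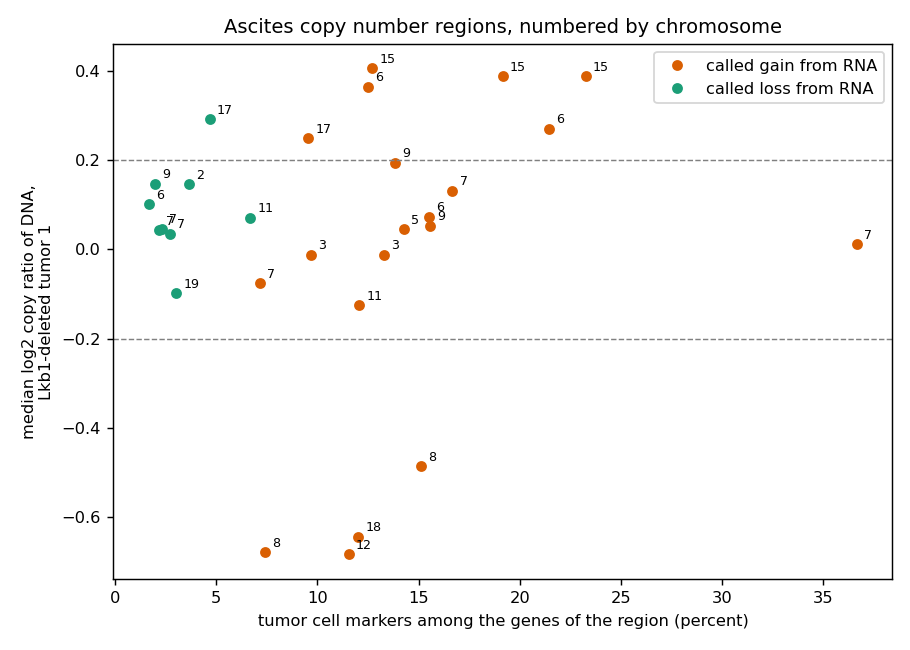
Each point is a copy number region of the ascites tumor cells, numbered by chromosome and coloured by its call from RNA; the horizontal axis is the percent of its genes that are tumor cell markers, the vertical axis the median log2 copy ratio of its DNA bins in Lkb1-deleted tumor 1, and dashed lines mark 0.2 and -0.2. The chromosome 15 regions lie above the upper line, and the gain regions of chromosomes 8, 12 and 18 lie below the lower line.

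Over all members with DNA bins (544 of 572), the copy ratios were close to those of all genes. In Lkb1-deleted tumor 1, 24.4% of members were gained against 21.4% of all genes, and 36.4% were lost against 34.2%. The order of the lost shares turned with a threshold of 0.3 (25.2% of members, 26.6% of all genes) and by 1 Mb windows (23.7% of members, 25.3% of all genes). The other tumors had members gained in 10.5%, 11.03%, 25.6% and 9.38% (Lkb1-deleted tumors 2 to 5) and 15.6%, 19.9% and 22.6% (Lkb1-intact tumors 1 to 3). All genes were gained in 13.9%, 12.4%, 26.5% and 12% of the same Lkb1-deleted tumors and in 18.4%, 22.8% and 25.4% of the Lkb1-intact tumors. In each of these 7 tumors the members' share gained was lower than that of all genes, and in Lkb1-deleted tumor 1 higher. Members lost made up 25.0%, 15.3%, 29.4% and 18.9% in Lkb1-deleted tumors 2 to 5 and 23.2%, 34.9% and 25.6% in Lkb1-intact tumors 1 to 3. All genes lost made up 21.3%, 12.4%, 31.9% and 16.5% in the same Lkb1-deleted tumors and 23.2%, 34.3% and 23.9% in the Lkb1-intact tumors. Members gained or lost came to 60.8%, 55.0%, 54.8% and 48.2% in the PAX8-positive tumors (Lkb1-deleted 1 and 4, Lkb1-intact 2 and 3) and 35.5%, 26.3%, 28.3% and 38.8% in the PAX8-negative tumors (Lkb1-deleted 2, 3 and 5, Lkb1-intact 1). The groups did not overlap, and neither did those of all genes (55.5%, 58.4%, 57.1% and 49.3% in PAX8-positive, 35.2%, 24.8%, 28.5% and 41.5% in PAX8-negative tumors).

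**Figure D5:**
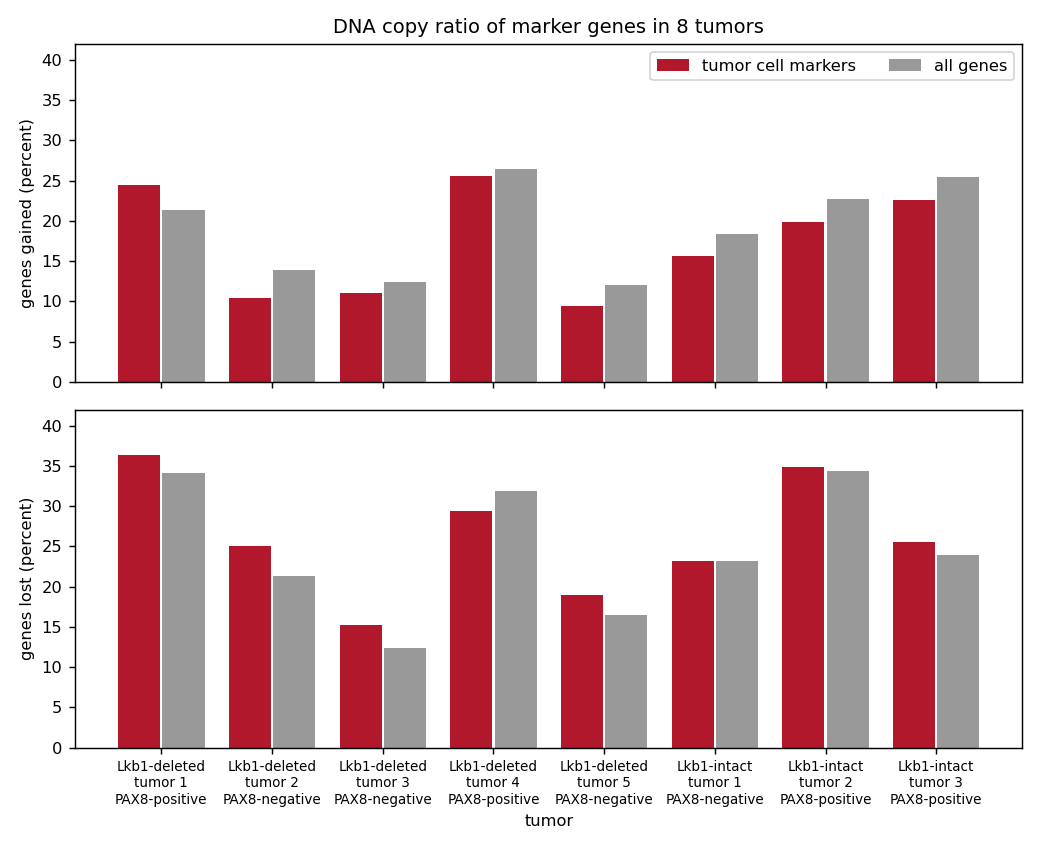
Percent of genes gained (upper panel, log2 copy ratio above 0.2) and lost (lower panel, below -0.2) in each of the 8 tumors, with tumor cell markers in red at the left of each pair and all genes in grey. Red and grey bars stand within 4 percentage points of each other in every tumor.

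Single members were read from few bins. Mt2 has 1 bin, with log2 copy ratios of -0.74, -0.46, -0.46, -3.72 and -0.14 in Lkb1-deleted tumors 1 to 5 and 0.46, 1.29 and -1.79 in Lkb1-intact tumors 1 to 3. The median of the 68 bins within 1 Mb was -0.65 for Lkb1-deleted tumor 1 against -0.13 to 0.21 for the remaining 7 tumors, so the low value over the neighbourhood stands in the tumor with the ascites mouse's number alone. The single bin of -3.72 in Lkb1-deleted tumor 4 was not shared by its neighbourhood (0.01). Krt7 had 0.40, 0.14, -0.002, 0.15 and 0.20 in Lkb1-deleted tumors 1 to 5 and 0.20, 0.28 and 0.05 in Lkb1-intact tumors 1 to 3, highest in Lkb1-deleted tumor 1. Its 82 bins within 1 Mb had a median of 0.25 there and 0.03 to 0.18 in the others. Krt18 has no bin of its own, and its neighbourhood stood at 0.33 in Lkb1-deleted tumor 1 and at 0.01 to 0.17 in the others.

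Epcam had its single bin above 0.2 in all 8 tumors, at 0.84, 0.46, 0.50, 0.70 and 0.45 in Lkb1-deleted tumors 1 to 5 and 0.48, 0.50 and 0.57 in Lkb1-intact tumors 1 to 3. Within 1 Mb the median ran from 0.06 to 0.47, highest in Lkb1-deleted tumor 4, and stood at 0.31 for Lkb1-deleted tumor 1. Clu, with 1 bin, had -0.31, -0.08, -0.13, 0.34 and 0.38 in Lkb1-deleted tumors 1 to 5 and -0.15, -0.11 and -0.30 in Lkb1-intact tumors 1 to 3. That bin was above 0.2 in Lkb1-deleted tumors 4 and 5 alone, where the median within 1 Mb was 0.18 and 0.07, under 0.2. Wt1, with 3 bins, was lowest at -0.32 (Lkb1-deleted tumor 1) and highest at 0.06 (Lkb1-deleted tumor 3). Upk3b was lowest at -0.33 (Lkb1-deleted tumor 3) and highest at 0.17 (Lkb1-deleted tumor 2). Igfbp5 was lowest at -0.71 (Lkb1-intact tumor 3) and highest at 0.20 (Lkb1-deleted tumor 5).

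Among members with at least 3 bins, those highest in Lkb1-deleted tumor 1 were the amino acid transporter gene Slc38a1 (0.87), the heterochromatin protein gene Cbx5 (0.53), Cox6c (0.50, a respiratory chain subunit), Eny2 (0.46) and Romo1 (0.46). The first 4 lie on chromosome 15, and Romo1, a mitochondrial protein gene, on chromosome 2. Lowest were Loxl2 (-1.09), the actinin gene Actn1 (-0.86), Sorbs2 (-0.77), Esyt2 (-0.69) and the myosin gene Myo5b (-0.66). Loxl2 was below -0.2 in all 8 tumors (-1.09 to -0.33), while its neighbourhood within 1 Mb lay between -0.52 and 0.14. Sorbs2, in contrast, was between -0.09 and 0.08 in the other 7 tumors, and Slc38a1 between -0.17 and 0.15. These genes were taken as extremes of Lkb1-deleted tumor 1, so their place there is a description.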

How the data were processed

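Markers of 9 clusters of ascites cells came from 1 single-cell RNA library, and the submitters' processing notes name Cell Ranger, Seurat 2.3.4, BWA, Picard and the build GRCm38 (mm10). The authors deposited an average log fold change per entry, taken here as a natural log, the base that this Seurat version uses, since the headers state none. Beside it the authors deposited a p-value and an adjusted p-value from their comparison of cells. They are over cells of 1 library and were used to describe the lists, not as tests. The number of cells and the share of cells with each gene were not used here. In 6 entries a date stands in place of the gene name; they were left out, and none was listed for the tumor cells.

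The authors deposited ascites copy number regions with a state score; state 3 was read as neutral, which the file headers do not state. The authors deposited for each tumor a log2 copy ratio per bin, against a reference that the sources used here do not give, and the read depth, a coverage signal with a mean of 1.25 to 2.24 over bins. Bins of depth 0 were left out (7 to 50 per tumor). Genes were given the median of the bins that the files name for them, and neighbourhoods are medians of bins within 1 Mb.

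No test was run, since members were compared within 1 library and each tumor was read by itself. Gene positions and promoter windows came from RefSeq tables of the same build: 561 of 572 members had a position and 440 a window. The members and gene lists were chosen with earlier results of these data known. Genes were named by rank: markers given for the cluster, the 20 highest, up to 6 per list plus members needed to account for it, the 15 highest not shared with CAFs, the 10 leaning most each way, the 5 at the limit, and the 5 highest and lowest DNA values of at least 3 bins. A part of this rule on the share of cells detected was not applied, and some genes are not reported here. Counting functions were tested on simulated data. The scripts used numpy 2.4.6 and pandas 2.3.3 under Python 3.11.15, with figures by matplotlib 3.10.9. Alternatives were other fold, p-value and copy ratio thresholds, sharing with any cluster, log2, the region table, 1 Mb windows, recentring, keeping bins of depth 0, at least 3 bins and promoter bases before the start; p under 1e-10 and the respiratory limit were added after seeing the data.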

Additional observations from a re-analysis of the deposited data

Results flagged for a closer look

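For 21 members, and for the shares of members gained and lost, each of the 5 Lkb1-deleted tumors was set against the other 4, by the gap of the highest or lowest tumor to its nearest neighbour over the whole range. Of 43 such groups of values 10 stood out. Chance flags about 1 in 20 groups that were not chosen by their values. The 21 members include the 5 highest and the 5 lowest of Lkb1-deleted tumor 1, so that rate does not apply here. Groups of genes close together share bins and are not separate.

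Lkb1-deleted tumor 1, whose number the ascites label carries, stood apart in 8 of the 10. Around Mt2 and Mt1 the log2 copy ratio within 1 Mb was -0.65 there (nearest tumor -0.13, the same bins for both genes), and Mt1's own bin had -2.99 (nearest -1.19). Around Wt1 it was -0.26 (nearest -0.02). Slc38a1 had 0.87 over its own bins (nearest 0.15) and 0.50 within 1 Mb (nearest 0.05). Sorbs2 had -0.77 over its own bins (nearest -0.09) and -0.63 within 1 Mb (nearest -0.07). Slc38a1 and Sorbs2 were named for being extreme in this tumor, so their standing out follows from the choice.

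Lkb1-deleted tumor 4 stood apart in the other two. Mt2's single bin had -3.72 (nearest -0.74), while its neighbourhood had 0.01. Around Upk3b the log2 copy ratio within 1 Mb was -0.26 (nearest 0.0002). The part of single-bin noise in these values was not tested.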

How the results depend on the processing

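Counting only entries with a log fold of at least 1 left 155 of the 572 members, 22 of the 114 genes shared with CAFs and 57 of the 104 list members. With that limit in every cluster, 131 genes were listed for tumor cells alone, some of them genes whose CAF entry is under 1, in place of 436. Read as log2, the median fold is 1.68 in place of 2.11. The share of members gained in Lkb1-deleted tumor 1 (24.4%) became 32.2% with a threshold of 0.1, 14.2% with 0.3, 18.2% by 1 Mb windows and 28.3% after recentring, against 31.2%, 13.6%, 15.6% and 25.6% of all genes. The share lost (36.4%) became 48.0%, 25.2%, 23.7% and 31.4% under the same settings, against 44.0%, 26.6%, 25.3% and 30.4% of all genes, so members were below all genes with 0.3 and by 1 Mb windows and above them otherwise. The cause was not tested. The pattern TGCNCNC stood in 59.5% of members' windows before the start alone, against 65.5%. Adjusted p under 0.01 left 572 members. Sharing with any of the other 8 clusters gave 136, and adjusted p under 1e-10 gave 77 shared and 474 alone. Regions by overlap gave 135 and 19 members, and 183 members with at least 3 bins were gained in 21.3% and lost in 33.9%; keeping bins of depth 0 changed neither share. The alternative on the share of other cells with the gene was not run, since that column was not used here. No paired analysis was possible because no test between groups was made and the ascites is 1 library. No replicate could be left out for the same reason. The low coverage of the DNA limits values that rest on single bins.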

Other observations

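Genes of mitochondrial respiration were frequent among the tumor cell markers, by names chosen after their values were seen and therefore without a test. Of 106 genes named for the respiratory chain or ATP synthase, 38 were members, 0 were CAF markers and 1 was listed for another cluster (B cells) alone. The members were 17 complex I names (Nduf), 5 complex III names (Uqc), 8 complex IV names (Cox) and 8 ATP synthase names (Atp5). Their log folds ran from 0.51 to 1.28 with a median of 0.72 in the authors' deposited table, close to the median of all members (0.75). Highest were Atp5g1 (1.28), Ndufa4 (1.05), Uqcr10 (0.96), Cox6a1 (0.94) and Uqcrq (0.93) in the authors' deposited table. With a limit of 0.7, 23 of the 38 are left. Ribosomal protein names went the other way: of 97, 0 were tumor cell markers, against 51 for CAFs, 69 for B cells and 65 for T cells. A marker is a difference from all other ascites cells, so these counts depend on which cells the rest holds, and cell depth was not used here.

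Genes known from the gonads and from retinoid handling were listed as well, again by lists chosen after values were seen. Of 15 gonad-associated genes 6 were members and 2 of them CAF markers. They were Wt1, Inha (1.46, inhibin alpha), Amhr2 (1.32), Star (1.18, which brings cholesterol into mitochondria for steroid synthesis), Gata4 (0.88) and Gata6 (0.66 in tumor cells, 0.95 in CAFs), in the authors' deposited table. Nr5a1, Foxl2, Cyp11a1, Cyp19a1 and Fshr were listed for no cluster. Of 12 retinoid genes 4 were members: Aldh1a2 (1.51), Aldh1a1 (1.28), Rdh10 (0.70, which oxidises retinol) and Rbp4 (0.68) in the authors' deposited table.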
